A study of Homo sapiens with 6 samples.

Results

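The 5 genes IL1A, CSF2, INHBA, IL7R and C3, which encode secreted inflammatory mediators and 1 cytokine receptor chain, were examined in RKO cells with and without depletion of squalene epoxidase (SQLE). They were chosen by name out of the 500 genes in the deposited table, and they had been selected on the same shSQLE and shNT values that are given here. Their differences between the groups are therefore a description and carry no test. All 5 had lower mean values in shSQLE cells, at 2.76% to 28.1% of shNT by summed reads.

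RKO is a human colorectal carcinoma cell line. RNA was sequenced from 3 libraries of RKO cells with a non-targeting small hairpin RNA (shNT, genotype given as WT) and from 3 libraries with a hairpin against SQLE (shSQLE, genotype given as SQLE knockdown). SQLE is the enzyme that oxygenates squalene in cholesterol synthesis, and the study asked how it affects the response of colorectal cancer cells to 5-fluorouracil (5-FU). Hairpins were delivered by lentivirus, and which of the study's SQLE hairpins was sequenced is not named. The study's text places the comparison after 5-FU treatment, whereas the sample labels name no 5-FU and carry the word Ctrl in both groups, so the treatment of the 6 libraries cannot be settled here. The series describes its design as duplicate, but 3 libraries per group are labelled. Nothing states that the libraries came from separate cultures, so every spread and p-value below measures these libraries and may be technical.

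The proteins belong to separate systems that meet in inflammation. Interleukin-1α, the product of IL1A, is active as an intracellular precursor and, once released from stressed or dying cells, signals through the interleukin-1 receptor to NF-κB. CSF2 encodes granulocyte-macrophage colony-stimulating factor (GM-CSF), a growth and survival factor for myeloid cells. INHBA encodes the βA chain, whose homodimer is activin A, a ligand of the TGF-β superfamily that signals through SMAD proteins and is bound by follistatin. IL7R encodes the α chain shared by the receptors for interleukin-7 and thymic stromal lymphopoietin, best known in lymphocytes. C3 is the central component of the complement cascade, and is made by the liver and by many epithelial cells. IL1A, CSF2 and C3 are among the genes that NF-κB can drive.

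The sequence upstream of each start is shown because NF-κB and AP-1 are the factors usually named for such genes. Of the 5 genes, 4 had a promoter window among 35116 windows from RefSeq (GRCh38.p14), each of 250 bases before and 50 after an annotated transcription start. The 250 upstream bases are printed in the direction of transcription, in lower case, with capitals for matches to the AP-1 motif TGACTCA (or its reverse complement TGAGTCA) and to TATAAA. The stretches are chr2:112784494-112784743 on the minus strand for IL1A (the first of 2 annotated starts), chr5:132073539-132073788 on the plus strand for CSF2, chr7:41703091-41703340 on the minus strand for INHBA and chr5:35856641-35856890 on the plus strand for IL7R.
IL1A: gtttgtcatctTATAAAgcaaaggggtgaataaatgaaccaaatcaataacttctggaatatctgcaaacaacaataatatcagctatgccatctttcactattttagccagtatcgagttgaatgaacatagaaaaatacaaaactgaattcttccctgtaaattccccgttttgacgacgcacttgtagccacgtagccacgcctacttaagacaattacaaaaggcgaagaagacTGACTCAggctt
CSF2: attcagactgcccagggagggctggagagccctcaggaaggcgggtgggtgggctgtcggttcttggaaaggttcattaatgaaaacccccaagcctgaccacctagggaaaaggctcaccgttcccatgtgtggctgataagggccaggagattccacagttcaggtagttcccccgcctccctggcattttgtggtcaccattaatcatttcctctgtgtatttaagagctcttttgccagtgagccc
INHBA: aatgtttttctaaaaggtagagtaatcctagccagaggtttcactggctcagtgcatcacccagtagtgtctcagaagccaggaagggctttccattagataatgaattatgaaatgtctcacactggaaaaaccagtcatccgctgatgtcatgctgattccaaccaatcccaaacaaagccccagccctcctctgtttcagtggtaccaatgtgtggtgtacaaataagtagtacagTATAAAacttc
IL7R: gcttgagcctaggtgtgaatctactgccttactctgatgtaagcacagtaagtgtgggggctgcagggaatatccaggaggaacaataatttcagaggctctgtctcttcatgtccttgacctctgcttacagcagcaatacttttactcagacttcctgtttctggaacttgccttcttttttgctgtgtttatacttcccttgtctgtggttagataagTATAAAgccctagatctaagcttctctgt
In IL1A the letters TGACTCA lay at -12 to -6 from the start, and TGAGTCA lay at 39 to 45 after it, outside the printed stretch. TATAAA, read in the direction of transcription only, lay at -29 to -24 in IL7R, at -11 to -6 in INHBA and at -239 to -234 in IL1A. The CSF2 window held none of the motifs searched. The κB consensus motif was searched on both strands like AP-1, as a run of G, a purine, unspecified bases, pyrimidines and a run of C over 10 bases, with no mismatch allowed. It had no exact match in the 4 windows, which leaves κB-like runs that differ from it uncounted, and no matches overlapped. Over all 35116 windows, 11.3% held a κB match, 4.95% an AP-1 match and 7.33% TATAAA. A match is only a run of letters, and sequence outside these windows was not searched.

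By GENCODE release 29 (GRCh38), IL1A lies on chromosome 2 at 112773915 to 112784590, with 7 exons in its longest basic coding transcript. CSF2 lies on chromosome 5 at 132073790 to 132076170 with 4 exons, and IL7R on the same chromosome at 35852695 to 35879603 with 8. INHBA lies on chromosome 7 at 41667168 to 41705834 with 3 exons, and C3 on chromosome 19 at 6677704 to 6730562 with 41. The printed INHBA and IL7R stretches lie wholly inside these GENCODE bounds, and the IL1A stretch in part. RefSeq and GENCODE thus differ in where these genes start, and upstream refers to the RefSeq start only. C3 overlaps GPR108 and AC008760.2 on its own strand, and INHBA overlaps the antisense gene INHBA-AS1. No source says if strand was used in counting, so reads from INHBA and INHBA-AS1 where they overlap cannot be told apart here. For C3 the overlapping genes share its strand, so strand would not separate their reads from those of C3 where they overlap. Of the stretches of 50 bases in the 5 transcripts, 0% occurred in a transcript of a gene elsewhere, among 206694 transcripts searched. The overlapping genes GPR108, AC008760.2 and INHBA-AS1 were left out of that count, so sequence shared with them is not covered.

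The deposited values are pseudo-counts, which are read counts moved to a common library size, and the whole reads behind all 3000 values were recovered within a tolerance of 0.01. Recovered reads summed over the 500 genes ranged from 117410 to 233404 per library, and the largest library size was 1.42 times the smallest. The table holds only genes that the authors had selected on this contrast, and unchanged genes were not used here. SQLE itself was at 6953.3 ± 25.1 pseudo-counts in shNT and at 302.3 ± 5.5 in shSQLE (mean ± SD over 3 libraries each), which was 4.34% of shNT. The cell type could not be checked well, since of 9 epithelial markers only KRT20 was in the table, of 10 leukocyte markers only ITGAM, of 4 endothelial markers only VWF, and of 6 fibroblast markers 0. ITGAM, an integrin chain of myeloid cells, gave 3, 7 and 11 shNT reads against 0, 2 and 2 for shSQLE. KRT20, an intestinal keratin, gave 4, 4 and 15 against 0, 0 and 0, and VWF, the von Willebrand factor, 8, 13 and 15 against 4, 0 and 0. IL7R and CSF2 are likewise familiar from blood cells, but all 6 libraries are labelled as RKO, a cultured cell line. The purity of the cultures was not tested.

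All 5 genes had few reads. Their mean shNT levels ran from 13.8 to 89.6 pseudo-counts, against a median of 22.7 over the 473 genes tested, and 76.3% of those genes had a mean shNT level under 100. In shSQLE, 5 of the 15 values of the 5 genes rested on 0 reads, against 0 in shNT. The intervals that follow are exact at the 95% level, come from summed reads scaled by library size, and cover counting error only. In bulk RNA, fewer cells expressing a gene and less RNA per cell cannot be told apart.

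**Figure D1:**
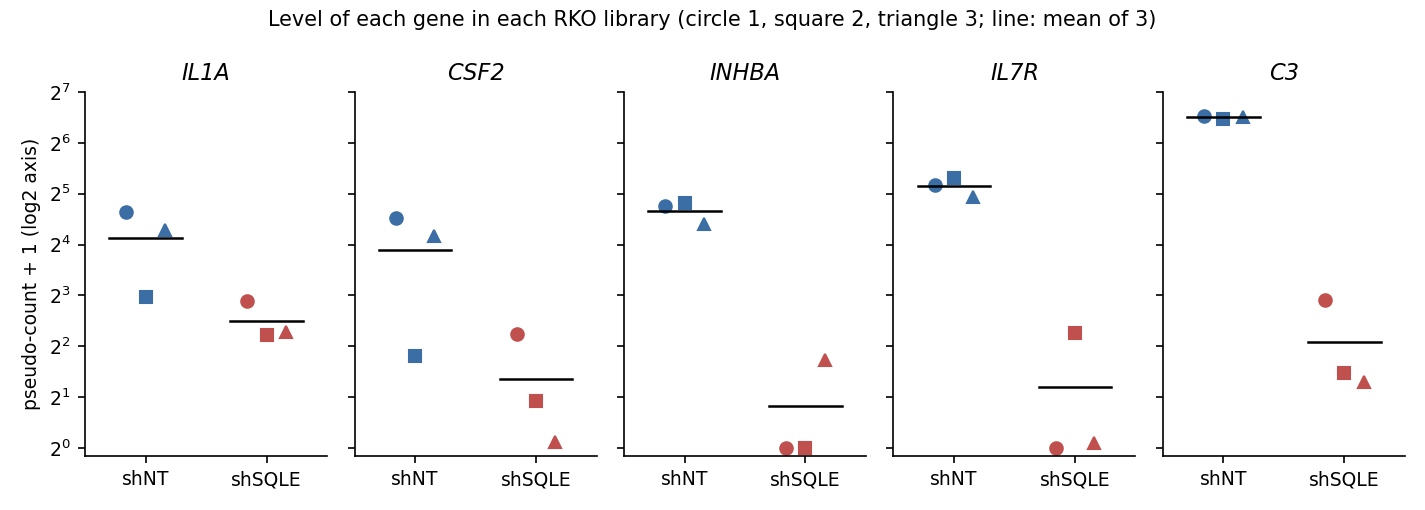
Pseudo-counts of the 5 genes in each of the 3 shNT and 3 shSQLE libraries (points), on a log2 axis of pseudo-count + 1, with a line at the group mean. INHBA, IL7R and C3 show close shNT values far above shSQLE, whereas IL1A and CSF2 have a low value in shNT library 2, at 6.81 and 2.48 pseudo-counts.

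IL1A was the least reduced of the 5 by its estimate, though its interval overlaps that of CSF2. Its reads were 24, 6 and 21 in shNT libraries 1 to 3 and 7, 4 and 3 in shSQLE, or 24.0, 6.81 and 18.6 against 6.41, 3.64 and 3.88 pseudo-counts. The groups did not overlap in pseudo-counts, but shNT library 2 lay just above the highest shSQLE library. Before scaling by library size it was lower, at 6 reads against 7. The means were 16.5 ± 8.81 and 4.64 ± 1.54 pseudo-counts (SD, n = 3 each), and summed reads put shSQLE at 28.1% of shNT (interval 14.4% to 51.5%). The fitted log2 fold change, on the log2(pseudo-count + 1) scale used throughout, was -1.51 ± 0.552 (SE). Leaving out a single library put the level between 22.2% (without shNT library 2) and 35.7% (without shNT library 1).

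CSF2, for GM-CSF, had few reads in every library, on the shortest transcript of the 5 (787 bases). The reads of the 3 shNT libraries were 22, 2 and 19, and those of shSQLE 4, 1 and 0, or 22.0, 2.48 and 16.9 against 3.72, 0.888 and 0.0891 pseudo-counts. Here the groups overlapped, since shNT library 2 was below shSQLE library 1. Mean levels were 13.8 ± 10.1 and 1.57 ± 1.91 pseudo-counts, and shSQLE was at 11.9% of shNT (3.68% to 30%). The log2 fold change was -2.40 ± 0.826, the widest error of the 5. Most of the shSQLE reads were in library 1, without which the level was 3.77% of shNT (0.0934% to 22.2%). It was 8.70% without shNT library 2, 16.4% without shNT library 1 and 16.2% without shSQLE library 3. The log2 fold change ran from -3.25 without shNT library 2 to -1.89 without shNT library 1.

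INHBA, the activin A chain, was steady in shNT and nearly absent from the shSQLE reads. Library by library, 26, 25 and 23 reads were counted in shNT, against 0, 0 and 2 in shSQLE, or 26.1, 27.0 and 20.1 against 0, 0 and 2.31 pseudo-counts. The groups were far apart, and both shSQLE reads came from library 3. Means were 24.4 ± 3.76 and 0.771 ± 1.34 pseudo-counts, and shSQLE was at 2.76% of shNT (0.329% to 10.3%), with a log2 fold change of -4.08 ± 0.579. Without shSQLE library 3 the reads were 0, which allows up to 7.13% of shNT, and the level was 4.39% without shSQLE library 1 and 4.34% without shSQLE library 2.

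IL7R, the only receptor chain of the 5, was also steady in shNT and rested on few reads in shSQLE. Its reads were 35, 36 and 34 in shNT and 0, 4 and 0 in shSQLE, or 35.1, 38.8 and 29.7 against 0, 3.79 and 0.0714 pseudo-counts. The groups did not overlap, and all 4 shSQLE reads were in library 2. The means were 34.5 ± 4.56 and 1.29 ± 2.17 pseudo-counts, which put shSQLE at 3.90% of shNT (1.04% to 10.3%) with a log2 fold change of -4.36 ± 0.655. Without shSQLE library 2 no read remained, which allows up to 5.75% of shNT, and without shSQLE library 1 the level was 6.18%.

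C3, the complement component, had the most reads of the 5. Its fitted fold change was the most negative among them with a pseudocount of 1, but not with a pseudocount of 0.1 (-5.06, against -6.41 for IL7R and -6.39 for INHBA) or 0.5 (-4.84, against -5.03 for IL7R), nor by limma-voom (-4.90, against -5.04 for IL7R). It was also passed without shSQLE library 2 (-4.40, against -5.09 for IL7R) and without shSQLE library 3 (-4.31, against -4.65 for INHBA), and by reads INHBA was at the lower percent of shNT. Reads were 91, 81 and 102 in shNT and 7, 2 and 1 in shSQLE, or 91.2, 87.7 and 89.9 against 6.49, 1.78 and 1.46 pseudo-counts. The shNT libraries were nearly equal, and shSQLE library 1 stood above the others. In shNT the SD over the mean was 1.97% for C3, 15.4% for INHBA and 13.2% for IL7R. Counting alone would give 10.5%, 20.1% and 16.9%, so these SDs understate the counting error. For IL1A and CSF2 the SD was above counting error, at 53.4% against 24.3% and 73.4% against 26.4% of the mean. Mean levels were 89.6 ± 1.76 and 3.24 ± 2.82 pseudo-counts, shSQLE was at 3.73% of shNT (1.77% to 6.97%), and the log2 fold change was -4.61 ± 0.473. Without shSQLE library 1 the level was 1.78% of shNT (0.364% to 5.25%).

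In the fit over 473 genes (limma with Benjamini-Hochberg adjustment), a call took an adjusted p under 0.05 together with a log2 fold change of 1 or more in either direction. All 5 genes were called lower and 0 higher, where 71.9% of all tested genes were called lower and 20.7% higher, and nothing about the 5 genes is read from that count because the same contrast chose them. IL1A and CSF2 were no longer called without shNT library 1, without shNT library 3, without shSQLE library 2 or without shSQLE library 3, which left 3 of the 5. By pseudo-counts, every shSQLE library was below every shNT library for 4 of the 5 genes, CSF2 being the exception, against 69.6% of all tested genes. For IL1A this depended on the scaling by library size. The median log2 fold change was -4.08 over the 5 genes and -1.38 over all genes tested. From the most negative fold change upwards, C3 ranked 3, IL7R 6 and INHBA 7, with SQLE at 5, CSF2 at 59 and IL1A at 207. The intervals of INHBA, IL7R and C3 overlap widely, so their order by size is not resolved at these read counts. Those of IL1A and CSF2 also overlap, so their order is not resolved either.

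**Figure D2:**
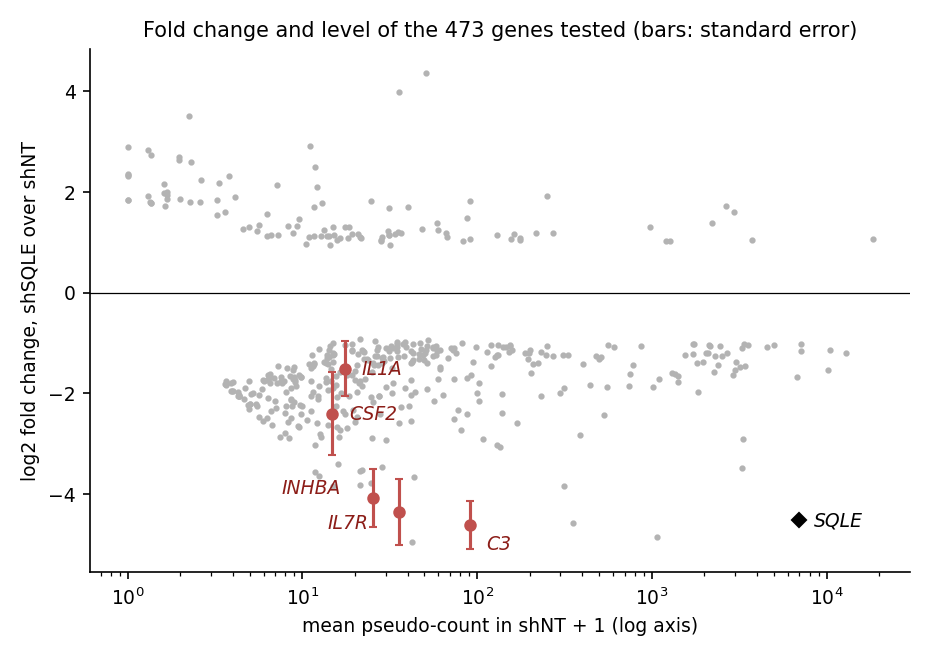
Log2 fold change (shSQLE over shNT) of the 473 genes tested against their mean pseudo-count in shNT + 1 on a log axis, with SQLE as a diamond and standard errors as bars on the 5 genes. INHBA, IL7R and C3 lie near SQLE in fold change, at -4.08 to -4.61, while IL1A lies at -1.51 among the bulk of the lower genes.

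Per kilobase of the longest basic coding transcript, CSF2 and C3 were the highest in shNT. This scale sets levels of different genes side by side but depends on the transcript chosen. Which transcripts RKO cells express was not tested. CSF2 was at 17.5 ± 12.9 and C3 at 17.0 ± 0.335 pseudo-counts per kilobase, and the spread of CSF2 spans that of C3. IL1A followed at 7.76 ± 4.15 and IL7R at 7.47 ± 0.986, which do not differ beyond their spread. INHBA had the lowest mean, 4.02 ± 0.619, within the spread of IL1A, and in shNT library 2 it was at 4.45, above CSF2 at 3.15 and IL1A at 3.21. In shSQLE the order was IL1A at 2.19 ± 0.724, CSF2 at 1.99 ± 2.42, C3 at 0.616 ± 0.535, IL7R at 0.278 ± 0.468 and INHBA at 0.127 ± 0.22. No neighbours in the shSQLE order differ beyond their spread.

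Within shNT, IL1A and CSF2 had a low value in library 2. There CSF2 was at 11.3% of the other 2 shNT libraries (1.32% to 43.3%) and IL1A at 30.8% (10.7% to 72.3%). Among the 231 genes with a mean shNT level of 10 to 100, CSF2 ranked 1 and IL1A 6 from the lowest in that library, and the median gene was at 95.9%. INHBA, IL7R and C3 were at 117.7%, 120.4% and 96.8%. These ranks were looked at because of the low values and carry no test.

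**Figure D3:**
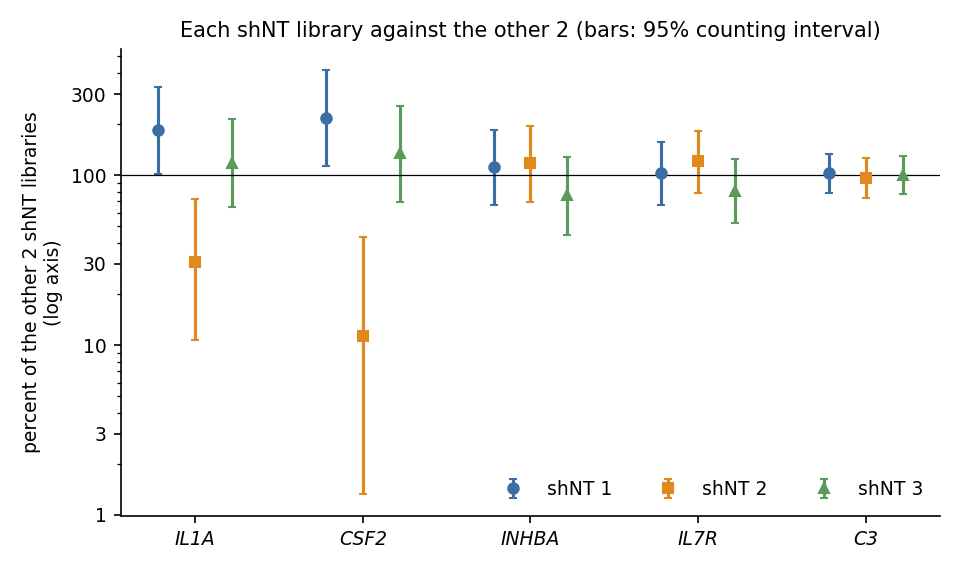
Level of each shNT library as a percent of the other 2 shNT libraries, on a log axis, with 95% exact intervals from reads as bars and a line where the libraries are equal. In library 2 CSF2 (11.3%) and IL1A (30.8%) lie well below the line, and the other 3 genes lie near it.

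For each of the 5 genes, the 3 genes of the table with the most similar values over the 6 libraries were found. Likeness was the root mean square difference of log2(pseudo-count + 1), each gene taken relative to its shNT mean, with smaller values for more alike genes. It used shNT library 2 and the drop in shSQLE along with the rest, so a neighbour shares both by choice. For IL1A the nearest gene was CEBPB (0.23), a basic leucine zipper transcription factor of inflammatory and acute-phase genes, followed by EPN3 (0.25) and PMEPA1 (0.25). CEBPB rested on many more reads, 2947, 1247 and 2788 for shNT against 927, 796 and 468 for shSQLE. In shNT library 2 it was at 50.2% of the other 2 (47.1% to 53.3%), and in shSQLE it was at 32.1% of shNT. For CSF2 the nearest were ACER1 (0.30), an alkaline ceramidase, SLC9A9 (0.54) and LRRC15 (0.68), all with at most 16 reads in any library.

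For C3 the nearest were MMP3 (0.50), a matrix metalloproteinase, SQLE (0.51) and CASP1 (0.63), and for IL7R they were CXCL8 (0.62), the chemokine interleukin-8, MMP10 (0.65) and SQLE (0.77). CXCL8 had 953, 958 and 1393 shNT reads against 30, 57 and 26 in shSQLE, which put it at 3.50% of shNT. INHBA was nearest to KRTAP21-2 (0.52), TRIML1 (0.54) and FLG2 (0.64), each of few reads. Among the 5 genes the difference was 0.85 between IL1A and CSF2 and 1.05 to 1.15 among INHBA, IL7R and C3, while every pair across these sets differed by 1.78 to 2.28, and these differences contain the unequal fold changes in shSQLE. Values of 6 libraries shared by all genes lie behind each of these figures.

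The surrounding pathways were read from 8 lists of 208 genes: the interleukin-1 family, colony-stimulating factors, common gamma-chain cytokines, the interleukin-6 family, the activin and TGF-β axis, complement, acute-phase proteins, and NF-κB subunits and inhibitors. Of the 203 genes other than the 5, 8 were in the table and 6 were tested, of which 6 were called lower and 0 higher, beside 71.9% and 20.7% of all tested genes. Leaving out a single library left 4 to 6 of them called, with 4 without shNT library 2, shNT library 3 or shSQLE library 2. The table holds only selected genes, so the other list genes were not analysed here. The genes named below had likewise been selected on this contrast, so their adjusted p-values test again the values that chose them and are no independent evidence.

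CASP1, the protease that matures interleukin-1β, had 30.1, 15.3 and 15.6 pseudo-counts in shNT and 1.86, 0 and 0.0358 in shSQLE, and fell by 3.82 on the log2 scale (SE 0.573, limma adjusted p = 0.000473). Next to CSF2, the interleukin-3 receptor chain IL3RA had 10, 7 and 1 shNT reads against 0 in every shSQLE library, and did not pass the filter on low values. Without that filter 8 of the 8 genes were called lower, IL3RA and PI3 included, beside 349 of all 500 genes. Of the 15 genes of the interleukin-6 family list 0 were in the table, and INHBA and IL7R were the sole entries from the 38 genes of the activin list and the 25 of the gamma-chain list.

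In the complement list, C3 was accompanied by C2, which is part of the classical pathway convertase, and C8G, a chain of the terminal complex. C2 was at 26.1, 20.8 and 35.7 shNT pseudo-counts against 17.5, 3.43 and 13.6 for shSQLE, with a log2 fold change of -1.39 (SE 0.566, limma adjusted p = 0.0406). C8G was at 14.0, 16.1 and 10.4 against 6.41, 5.55 and 1.56, with a log2 fold change of -1.52 (SE 0.539, limma adjusted p = 0.0262). Both fell less far in fold change than C3, a difference that was not tested. SERPINA1, the acute-phase protein α1-antitrypsin, changed by -1.64 (SE 0.547, limma adjusted p = 0.0213), and the elastase inhibitor PI3, which the filter also left out, had 0, 4 and 8 shNT reads against 0 in every shSQLE library.

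The NF-κB inhibitors gave the firmest values of these lists because they rest on many reads. NFKBIA, which encodes IκBα and is itself an NF-κB target, was at 2595.8, 2659.1 and 2852.3 pseudo-counts in shNT and 1194.6, 1266.4 and 1096.0 in shSQLE. Its log2 fold change was -1.19 (SE 0.0793, limma adjusted p = 2.48e-06). TNFAIP3, the ubiquitin-editing inhibitor A20, fell from 718.6, 753.2 and 789.6 to 267.4, 258.9 and 217.6, by 1.60 on the log2 scale (SE 0.113, limma adjusted p = 3.45e-06). For neither gene was shNT library 2 low, unlike IL1A and CSF2.

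Of the genes that the table's own annotation puts under cytokine activity, 8 were tested, IL1A, CSF2 and INHBA among them, with 7 called lower and 1 higher, beside 71.9% and 20.7% of all tested genes, so nothing is read from the count. This set was looked at after the values were seen. EBI3, a subunit of interleukin-27 and interleukin-35, went from 79.9 ± 7.86 to 11.3 ± 2.05 pseudo-counts (SD, n = 3 libraries), a log2 fold change of -2.72 (SE 0.27, limma adjusted p = 3.42e-05). EDN1 (endothelin-1) changed by -2.33, SPP1 (osteopontin) by -2.07 and TNFSF15, a TNF superfamily ligand, by -1.05. GDF7, a bone morphogenetic protein ligand of the same superfamily as activin, rose from 2.82 ± 3.24 to 13.7 ± 4.64 pseudo-counts, a log2 fold change of 2.31 (SE 0.717, limma adjusted p = 0.0165).

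The fold changes of the 5 genes depended on how low values were treated, most of all for INHBA and IL7R, which have libraries at 0. With a pseudocount of 0.1 in place of 1, INHBA went from -4.08 to -6.39 and IL7R from -4.36 to -6.41, and the percent of shNT from reads does not depend on that choice. None of the 5 genes had 10 or more pseudo-counts in every library, so a filter at that level leaves them all out.

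**Figure D4:**
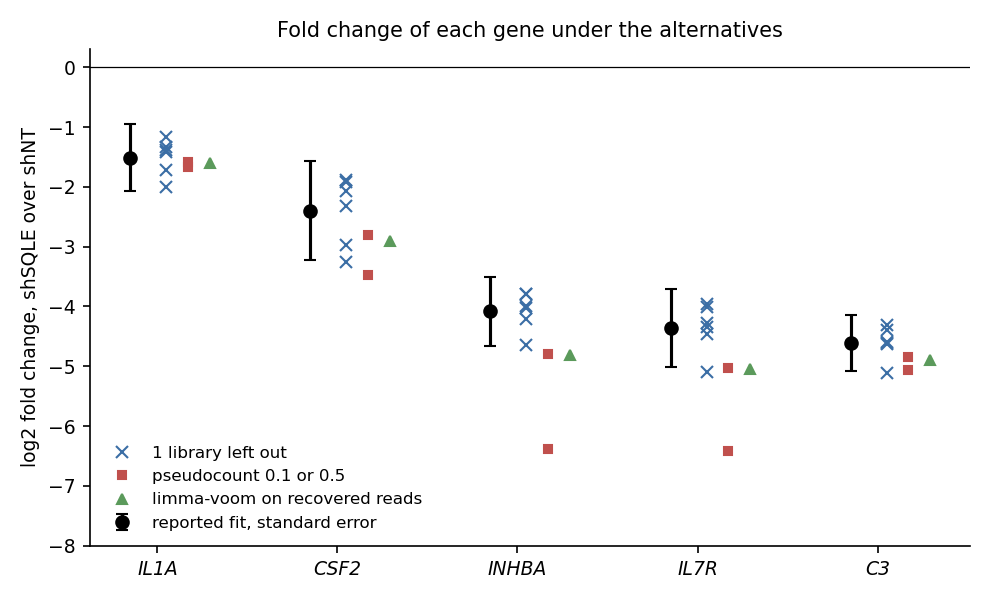
Fitted log2 fold change (shSQLE over shNT) of the 5 genes in the reported fit (circles, bars for the standard error), with each library left out (crosses), with a pseudocount of 0.1 or 0.5 (squares) and by limma-voom on recovered reads (triangles). All plotted values lie below 0, with IL1A between -2.01 and -1.17 when a library is left out, and a pseudocount of 0.1 takes INHBA to -6.39 and IL7R to -6.41.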

How the data were processed

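RNA of RKO cells (3 shNT and 3 shSQLE libraries) was extracted with TRIzol and sequenced from standard Illumina libraries. The authors deposited 1 table of 500 genes that holds a signal value per gene and library (pseudo-counts), together with 3 columns of their own comparison, deposited as a log2 fold change, a p-value and an adjusted p-value, which were not used. The submitters' processing notes list Bowtie 0.12.2 and the mouse build mm8 with no role, although the cells are human. The aligner settings, counting and annotation are not given in the sources used here. Total depth per library is therefore unknown.

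Whole reads were recovered by fitting library sizes and a dispersion (0.00485 in each group) so that negative binomial quantiles return the deposited signal. The test depended on the unit: because the values are normalized, limma 3.58.1 in R 4.3.3 was fitted on log2(value + 1) with a mean-variance trend and without covariates, on genes that reached 1 in 3 or more libraries, and p-values were adjusted by Benjamini-Hochberg. This tested 473 genes and left out 27. Since the authors had selected the genes on these libraries, adjusted p-values test again the values that chose the genes and are given as descriptions of this table. An exact permutation of 3 against 3 libraries could not go below p = 0.1 and was not run. Percent of shNT came from summed reads with exact 95% intervals (SciPy 1.17.1). The scripts were tested on simulated data before use.

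The genes, lists and tests were chosen with earlier results of these data known. Besides the 5 genes and SQLE, every list gene in the table and, for each of the 5, the 3 genes most alike over the 6 libraries are named. Genes of the cytokine activity term were named after their values were seen. Replicate numbers were not used as pairs in the reported fit. Deviations of same-numbered libraries correlated at 0.0806, 0.0416 and 0.0919. These low values cannot exclude a pairing, since many genes have few reads and counting error dilutes them. Promoters are from RefSeq (GRCh38.p14) and transcripts from GENCODE release 29, with which gene symbols were matched, since the build of the files is not given. Alternatives were other filters and pseudocounts, no trend, a replicate block, each library left out and limma-voom on the recovered reads.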

Additional observations from a re-analysis of the deposited data

How the results depend on the processing

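All 5 genes kept a negative fold change under every alternative that could be run. A filter of at least 10 in every library left 193 genes, with 137 lower and 47 higher in place of 340 and 98, and 2 of the 6 other list genes, and none of the 5 genes could be tested there. With no filter the counts were 349 lower and 104 higher, with 8 other list genes. A pseudocount of 0.1 moved log2 fold changes by more than their SE in the reported fit, to -3.47 for CSF2, -6.39 for INHBA and -6.41 for IL7R. So did a pseudocount of 0.5 for INHBA (-4.79) and IL7R (-5.03), and limma-voom on recovered reads for both (-4.82 and -5.04). Leaving out shNT library 2 did so for CSF2 (-3.25), and leaving out shSQLE library 2 for IL7R (-5.09). The same held for C3 without shSQLE library 1 (-5.12). With each library left out in turn, the counts were 232 to 295 lower and 71 to 80 higher, and the fold changes ran from -2.01 to -1.17 for IL1A, -3.25 to -1.89 for CSF2, -4.65 to -3.79 for INHBA, -5.09 to -3.96 for IL7R and -5.12 to -4.31 for C3. IL1A and CSF2 were no longer called without shNT library 1 or 3, or without shSQLE library 2 or 3, which left 3 of the 5 genes called. The percent of shNT with a library left out, an alternative chosen after seeing the data, ran from 0 to 4.39 for INHBA and from 0 to 6.18 for IL7R. With a replicate block the counts were 333 lower and 97 higher, the 5 fold changes were those without it, and the calls of the 5 genes and the 6 other list genes did not change. Depth limits INHBA, IL7R and CSF2 most, whose shSQLE groups hold 2, 4 and 5 reads.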
